A study of Mus musculus with 18 samples.

Results

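The 31 genes described here make sterols and fatty acids or control that synthesis, and their rows were taken from the expression table by gene symbol. The list of members was chosen with earlier results of these data known. The members are 31 of the 34850 genes that had a value. The sterol branch holds 17 enzymes, from Acat2 at the entry of the mevalonate pathway to Dhcr7 at the last reduction before cholesterol. The fatty acid branch holds 8 enzymes, Acly, Acaca, Fasn, Scd1, Scd2, Elovl6, Fads1 and Fads2. The remaining 6 are regulators and a carrier, namely Srebf1, Srebf2, Scap, Insig1, Insig2 and Stard4. Of the 31 genes, 30 passed the filter on low values and were tested, and Idi1 did not.

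Expression was read by SC3-seq, a sequencing method for the 3′ ends of transcripts, from 1 ng of RNA in 18 mouse libraries that form 9 groups of 2. Embryonic stem cells (ESC) and the epiblast-like cells made from them (EpiLC, taken at day 2) were unsorted, and primordial germ cell-like cells at day 4 of induction (d4 PGCLC) were sorted for mVenus. These 3 groups had the C57BL/6 strain label, and both they and the cultured PGCLCs carried the reporters Blimp1-mVenus and Stella-ECFP, which mark germ cell genes. The d4c7 groups were d4 PGCLCs kept for 7 more days on m220-5 feeder cells, labelled B6D2F1 and sorted for mVenus again. They were cultured with FR10 (10 µM each of forskolin and rolipram, which raise cAMP), CsA (cyclosporin A, a calcineurin inhibitor), FGF10 or FGF2. The E9.5c5 groups were primordial germ cells of E9.5 embryos from B6D2F1 x C57BL/6 crosses with a Stella-EGFP reporter, cultured for 5 days with FR10 or CsA and sorted for EGFP. FGF10 and FGF2 are given here under their label names. The sample records list 10 µM forskolin for every cultured group, including those with CsA, FGF10 and FGF2. The sources used here do not give the doses of CsA and of the FGF agents, or whether rolipram was also in those cultures.

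Media differed with the stage. ESCs grew in N2B27 with inhibitors of MEK and GSK3 and with LIF, EpiLCs in N2B27 with activin A, FGF2 and 1% KSR (a serum replacement), and d4 PGCLCs as floating aggregates in medium with 15% KSR and BMP4, LIF, SCF and EGF. The feeder cultures had 10% KSR with 2.5% FCS (fetal calf serum). Stage, medium and sorting changed together between EpiLC and d4 PGCLC, and strain label and feeder contact changed with culture, so their parts in the differences below cannot be told apart.

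Cells make cholesterol from acetyl-CoA through mevalonate, farnesyl diphosphate, squalene and lanosterol, and make saturated, unsaturated and longer fatty acids from the same acetyl-CoA pool. Most of these enzymes are known targets of the SREBP transcription factors encoded by Srebf1 and Srebf2. When membrane sterol is low, SCAP carries SREBP to the Golgi for cleavage, and when sterol is plentiful the INSIG proteins hold SCAP in the endoplasmic reticulum.

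Levels are in RPM, reads scaled by the authors to 1 total for every library, and a fold change is the difference of log2(RPM + 1) between group means with its standard error. Calls were made in a limma fit across all 18 libraries, where the Benjamini-Hochberg adjusted p over 9561 tested genes was under 0.05. The inferred depth was 2129401 to 7547631 reads a library, at which 3 reads are worth 0.397 to 1.41 RPM. In bulk libraries, fewer cells of a type and less RNA per cell cannot be told apart. The replicate 2 libraries of d4c7 FGF2, E9.5c5 FR10 and E9.5c5 CsA stood apart, with 12261, 12612 and 12055 genes detected at equal depth against 13054 to 13997 in the other libraries. Between replicates the members differed by a median of 0.17 to 0.23 log2 units in ESC, EpiLC and d4 PGCLC, by 0.24 to 0.29 in d4c7 FR10, CsA and FGF10, and by 0.44 to 0.60 in d4c7 FGF2 and both E9.5c5 groups. Marker sums followed the labels. The 4 formative epiblast markers summed to 1642 and 1657 RPM in EpiLC and to at most 121 RPM in every other library, and the 7 germ cell markers summed to 887 RPM or more in each germ cell library, against 342 RPM or less in ESC and EpiLC. The 13 feeder and fibroblast markers summed to 247 to 1156 RPM in the germ cell libraries, most of it from Sparc, Fn1 and Vim, which ESCs also expressed. Without these 3, a split made after their values were seen, the other 10 summed to 13.8 to 221 RPM in the cultured libraries, 8.92 and 18.3 RPM in d4 PGCLC, 77.4 and 82.1 RPM in EpiLC and 4.62 and 6.76 RPM in ESC. Lum was at 0 in all 18 libraries and Thy1 in all cultured ones.

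Promoter sequences in RefSeq (GRCm38.p6, 250 bases before to 50 bases after each gene start) were matched for 24 of the 31 members. They were searched on both strands for TCACNCCAC, written after the sterol response element, for CCAAT, the box bound by NF-Y, and for CACGTG, the E-box. These members had 32 promoters, some of which overlap within a gene. CCAAT was in 20 of the 32 member promoters, or 62.5%, and in 37.4% of all 32851 promoters. The 20 belong to 19 members, by branch 13 of 14 sterol members, 2 of 5 fatty acid members and 4 of 5 regulators. TCACNCCAC matched in 1 member promoter, that of Hmgcs1 at 137 bases before the start, and in 1.24% of all promoters. CACGTG was in 6 of the 32 member promoters, from 5 members, and in 7.15% of all promoters, and no matches of different motifs overlapped in the member promoters. A match is a run of letters and not a measured binding site. The 5 promoters below are shown because their genes span the expression patterns described next: Hmgcs1 was not called in d4 PGCLCs against EpiLCs, Cyp51, Nsdhl and Acly fell, and Ebp rose. Capitals mark CCAAT, written as ATTGG where it lies on the other strand, and, in Hmgcs1, also TCACCCCAC.
Hmgcs1, chr13:119690101-119690400, plus strand: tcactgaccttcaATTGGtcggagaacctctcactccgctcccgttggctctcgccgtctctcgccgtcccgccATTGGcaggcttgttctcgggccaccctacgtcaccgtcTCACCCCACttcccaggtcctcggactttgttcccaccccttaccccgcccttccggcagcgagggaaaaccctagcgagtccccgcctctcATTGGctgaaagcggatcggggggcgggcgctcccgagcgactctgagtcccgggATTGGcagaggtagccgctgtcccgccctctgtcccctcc
Cyp51, chr5:4104648-4104947, minus strand: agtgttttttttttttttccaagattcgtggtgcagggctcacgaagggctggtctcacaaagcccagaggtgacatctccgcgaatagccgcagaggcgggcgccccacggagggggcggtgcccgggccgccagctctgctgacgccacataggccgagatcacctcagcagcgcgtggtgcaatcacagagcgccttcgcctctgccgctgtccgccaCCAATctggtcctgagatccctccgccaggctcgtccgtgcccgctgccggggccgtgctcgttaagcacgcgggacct
Nsdhl, chrX:72918271-72918570, plus strand: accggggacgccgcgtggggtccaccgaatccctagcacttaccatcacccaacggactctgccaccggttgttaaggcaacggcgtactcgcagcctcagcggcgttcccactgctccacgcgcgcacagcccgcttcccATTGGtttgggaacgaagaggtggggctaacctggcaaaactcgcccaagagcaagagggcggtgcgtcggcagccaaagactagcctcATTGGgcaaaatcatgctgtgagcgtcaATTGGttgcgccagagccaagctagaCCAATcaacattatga
Acly, chr11:100527951-100528250, minus strand: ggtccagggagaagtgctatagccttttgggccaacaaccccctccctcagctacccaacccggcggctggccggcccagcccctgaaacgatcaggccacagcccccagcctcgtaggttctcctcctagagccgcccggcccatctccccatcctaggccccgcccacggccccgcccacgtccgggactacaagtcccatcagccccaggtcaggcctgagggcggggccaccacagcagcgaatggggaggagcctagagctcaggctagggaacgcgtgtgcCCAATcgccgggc
Ebp, chrX:8193463-8193762, minus strand: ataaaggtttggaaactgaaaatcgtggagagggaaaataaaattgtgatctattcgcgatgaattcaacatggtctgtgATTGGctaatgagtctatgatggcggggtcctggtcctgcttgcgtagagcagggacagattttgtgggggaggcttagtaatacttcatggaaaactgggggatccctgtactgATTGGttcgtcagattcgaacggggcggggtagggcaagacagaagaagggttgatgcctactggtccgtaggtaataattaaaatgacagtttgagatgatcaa
The CCAAT match of Cyp51 lay 29 bases before the gene start and that of Acly 38 bases after it. Ebp, whose level moved opposite to most of the branch, held matches at 170 and 55 bases before its start. Of the 9 members with a promoter entry that fell in d4 PGCLCs against EpiLCs, 6 held CCAAT in at least 1 promoter. Among all 24 members with an entry 19 did, so CCAAT was not more frequent in those that fell. The 37.4% of all promoters is counted by promoter and is no background for these counts by member or branch.

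Members were also counted by the group in which their mean was highest or lowest. By group mean, 12 of the 17 sterol members were highest in EpiLC, while 4 of the 8 fatty acid members were highest in ESC and 3 in EpiLC. These 4 were Acly, Scd1, Scd2 and Fads1, and the Acly libraries of ESC and EpiLC overlapped. The mean of log2(RPM + 1) over each branch was highest in EpiLC. It lay above ESC by 0.39 in the sterol branch and by 0.04 in the fatty acid branch. At the low end, 7 of the 8 fatty acid members were lowest in d4c7 FGF2. Among the sterol members no group was the lowest, ties included, for more than 4 of the 17. The shares of all tested genes highest or lowest in these groups were not counted. All tested genes had a median of −0.33 log2 units in d4c7 FGF2 against d4c7 FR10, where 2 fatty acid members were called lower. Some low points were within the spread: Fasn had 158 and 172 RPM in d4c7 FGF2 and 187 and 160 RPM in d4c7 CsA.

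**Figure D1:**
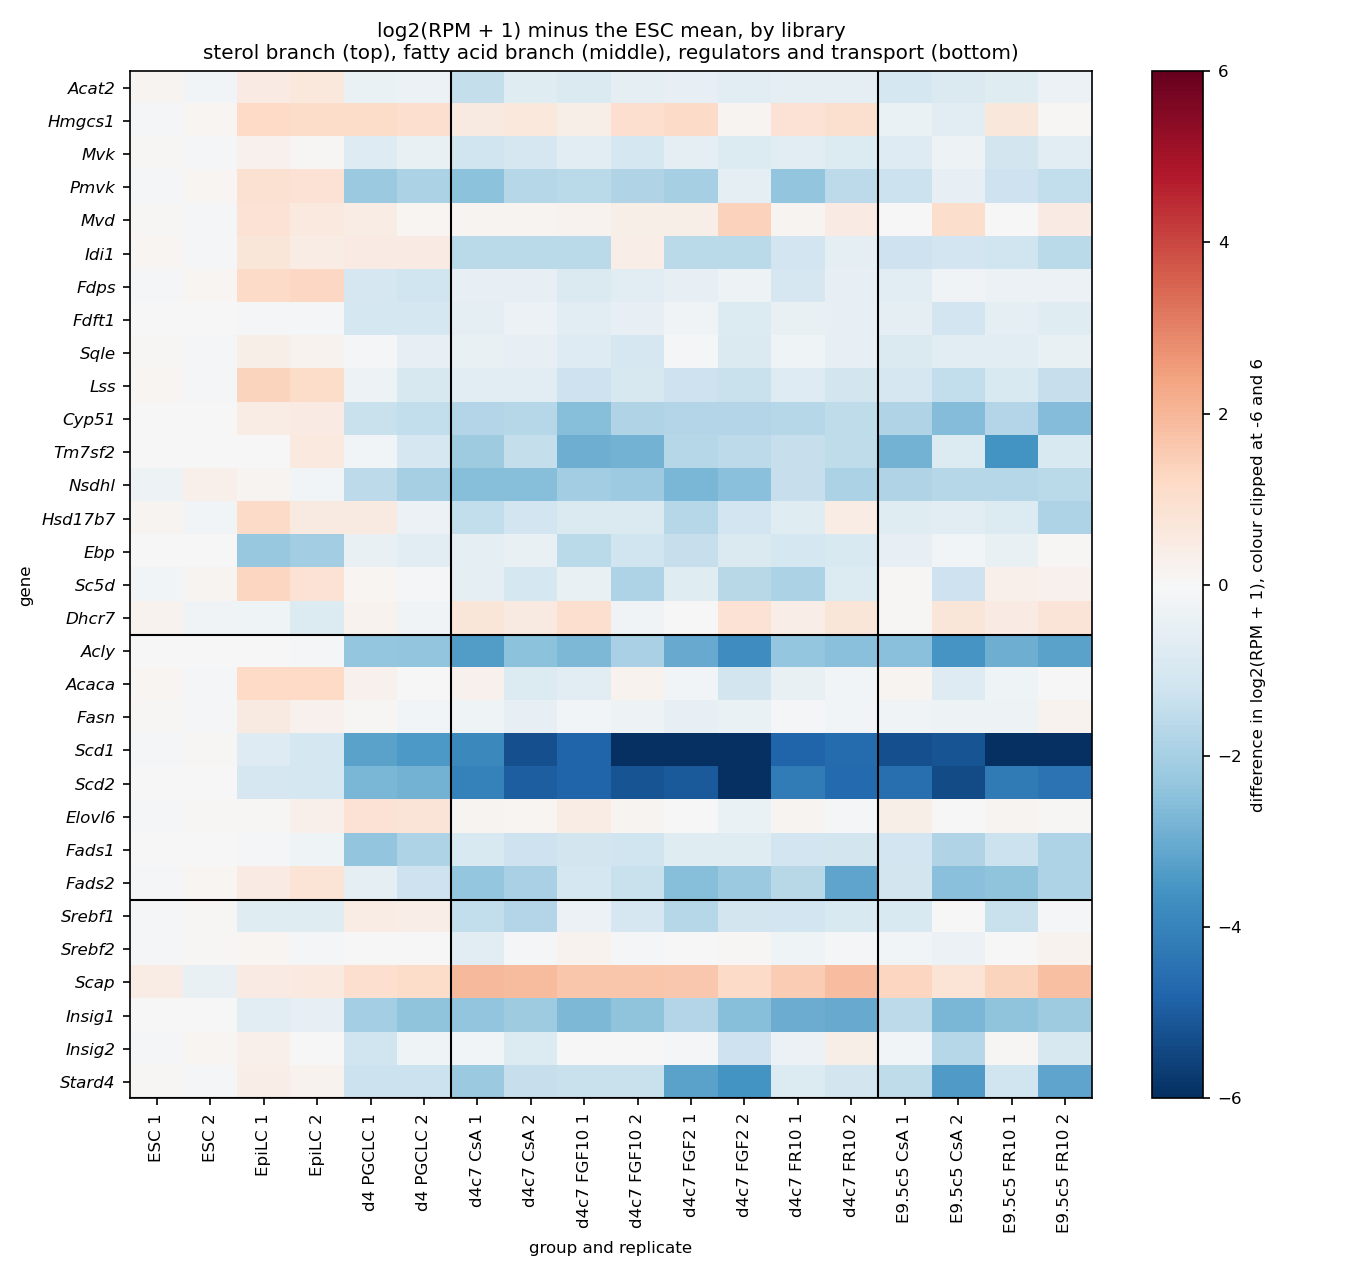
Each row is a member and each column a library; colour gives log2(RPM + 1) minus that gene's mean over the 2 ESC libraries, with sterol members on top, fatty acid members in the middle and regulators below. The EpiLC columns are red for many sterol rows, and the Scd1, Scd2 and Acly rows are blue from d4 PGCLC onward.

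The first comparison was between EpiLCs and ESCs, the exit from the naive state. Of 30 tested members, 3 were called higher and 1 lower in EpiLC, beside 7.09% of all tested genes called higher and 8.86% called lower. All 4 called members belong to the sterol branch, whose median log2 fold change was 0.52, against 0.08 for the fatty acid branch, 0.09 for the regulators and 0.01 for all tested genes. The count is near the background and moved with the settings: 16 members were called when the 6 uncultured libraries were fitted alone.

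Fdps makes farnesyl diphosphate, the branch point to sterols and to protein prenylation. It had 598 and 633 RPM in EpiLC, against 250 and 291 RPM in ESC, a log2 fold change of 1.19 ± 0.20 (limma adjusted p = 0.000418). Hmgcs1, which makes HMG-CoA, had 166 and 154 RPM in EpiLC, against 67.7 and 77.7 RPM in ESC (1.13 ± 0.29, limma adjusted p = 0.0130). Lss, which closes the sterol ring system to form lanosterol, had 89.3 and 77.0 RPM in EpiLC, against 37.9 and 32.7 RPM in ESC (1.21 ± 0.32, limma adjusted p = 0.0154). For these 3 genes every EpiLC library lay above every ESC library. The calls of Hmgcs1 and Lss were lost without any 1 of the 4 libraries, at adjusted p of 0.0546 to 0.134 across those limma fits.

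Ebp, the isomerase that shifts the sterol ring double bond late in the pathway, fell. It had 9.52 and 10.8 RPM in EpiLC, against 49.6 and 49.8 RPM in ESC (log2 fold change −2.18 ± 0.29, limma adjusted p = 5.54e-05). Both EpiLC values were the lowest for Ebp among the 18 libraries.

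No fatty acid enzyme was called between EpiLC and ESC by limma, with 2 of 8 at an unadjusted p under 0.05, beside 27.7% of all tested genes. The desaturase gene Scd2 had 656 and 650 RPM in EpiLC, against 1353 and 1314 RPM in ESC (log2 fold change −1.03, limma adjusted p = 0.0583). Acaca, the carboxylase that makes malonyl-CoA, had 83.4 and 85.9 RPM in EpiLC, against 40.1 and 32.9 RPM in ESC (1.20, limma adjusted p = 0.0567). In both genes the groups did not overlap, yet the change missed the threshold.

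The step from EpiLCs to induced PGCLCs had the most called members of the comparisons made. Of 30 tested members, 15 fell and 3 rose in d4 PGCLC against EpiLC, while among all tested genes 12.1% were called lower and 27.5% higher. The member median log2 fold change was −0.96, against 0.34 for all tested genes, so the medians lay on opposite sides of 0. With median-ratio scaling, which put the median of all tested genes near 0 in place of 0.34, 19 members fell and 1 rose. The groups did not overlap in 23 members that were lower and 5 that were higher in d4 PGCLC, beside 27.1% and 52.3% of all tested genes. This comparison shares the EpiLC libraries with the one before it.

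In the mevalonate segment the kinase Pmvk, which acts on phosphomevalonate, had the lowest log2 fold change. Pmvk had 12.7 and 16.6 RPM in d4 PGCLC, against 120 and 116 RPM in EpiLC, a log2 fold change of −2.94 ± 0.43 (limma adjusted p = 5.63e-05) that is a 7.68-fold lower level. Fdps had 136 and 117 RPM in d4 PGCLC, against 598 and 633 RPM in EpiLC (−2.28 ± 0.20, limma adjusted p = 2.40e-07). Neither gene's d4 PGCLC libraries came near its EpiLC libraries.

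Hmgcs1, one step above mevalonate, had 158 and 145 RPM in d4 PGCLC, against 166 and 154 RPM in EpiLC, and was not called. Mvk and Mvd, the kinase and the decarboxylase on either side of Pmvk, were not called either. Mvk had 17.4 and 21.4 RPM in d4 PGCLC and 36.2 and 31.3 RPM in EpiLC, and Mvd had 51.2 and 41.3 RPM in d4 PGCLC and 70.1 and 58.0 RPM in EpiLC. The fall along the mevalonate segment was uneven in size between neighbouring steps, which was not itself tested. Acat2, the cytosolic thiolase at the entry, had 36.6 and 37.7 RPM in d4 PGCLC, against 69.0 and 74.3 RPM in EpiLC (−0.93 ± 0.28, limma adjusted p = 0.0147). Its call is uncertain, because reads may be shared with the near-identical Acat3, whose log2 fold change was 0.55 ± 0.16, and because it was lost without any 1 of the 4 libraries. Idi1, the isomerase before Fdps, was at 4.0 RPM or less in all 18 libraries and was not tested.

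The steps from squalene to the sterol nucleus fell in part. Fdft1, squalene synthase, had 140 and 139 RPM in d4 PGCLC, against 278 and 280 RPM in EpiLC (−1.0 ± 0.21, limma adjusted p = 0.00154). Lss had 28.6 and 17.8 RPM in d4 PGCLC, against 89.3 and 77.0 RPM in EpiLC (−1.83 ± 0.32, limma adjusted p = 0.000312). In both genes each d4 PGCLC library was below each EpiLC library. Sqle, the epoxidase between these enzymes, had 142 and 110 RPM in d4 PGCLC and 201 and 179 RPM in EpiLC and was not called.

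Cyp51, which removes the first methyl group from lanosterol, had 37.1 and 33.6 RPM in d4 PGCLC, against 133 and 137 RPM in EpiLC (−1.90 ± 0.33, limma adjusted p = 0.000250). Nsdhl, a dehydrogenase in the removal of the next methyl groups, had 28.2 and 20.9 RPM in d4 PGCLC, against 94.9 and 77.0 RPM in EpiLC (−1.78 ± 0.30, limma adjusted p = 0.000191). Both genes were also low in every cultured library, at 33.1 RPM or less for Cyp51 and 32.5 RPM or less for Nsdhl. Ebp was the only sterol member called higher, with 36.2 and 31.5 RPM in d4 PGCLC, against 9.52 and 10.8 RPM in EpiLC (1.64 ± 0.29, limma adjusted p = 0.000354). Its d4 PGCLC level lay between those of EpiLC and ESC. Dhcr7, the final reductase, was also higher without overlap but not called, at 8.92 and 6.37 RPM in d4 PGCLC, against 6.10 and 3.87 RPM in EpiLC.

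Of the sterol genes not called in this comparison, the reductase Tm7sf2, the ketoreductase Hsd17b7, the desaturase Sc5d and Dhcr7 had low levels, between 3.87 and 29.0 RPM across the EpiLC and d4 PGCLC libraries. The 3′ ends of Fdft1 and Cyp51 overlap Ctsb and Akap9 on the opposite strand, by 774 and 166 bases, and whether the counting used strand is not given in the sources used here. Neither partner was called in this comparison. Ctsb had a log2 fold change of 0.22 and Akap9 of 1.10, with limma adjusted p of 0.457 and 0.141.

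**Figure D2:**
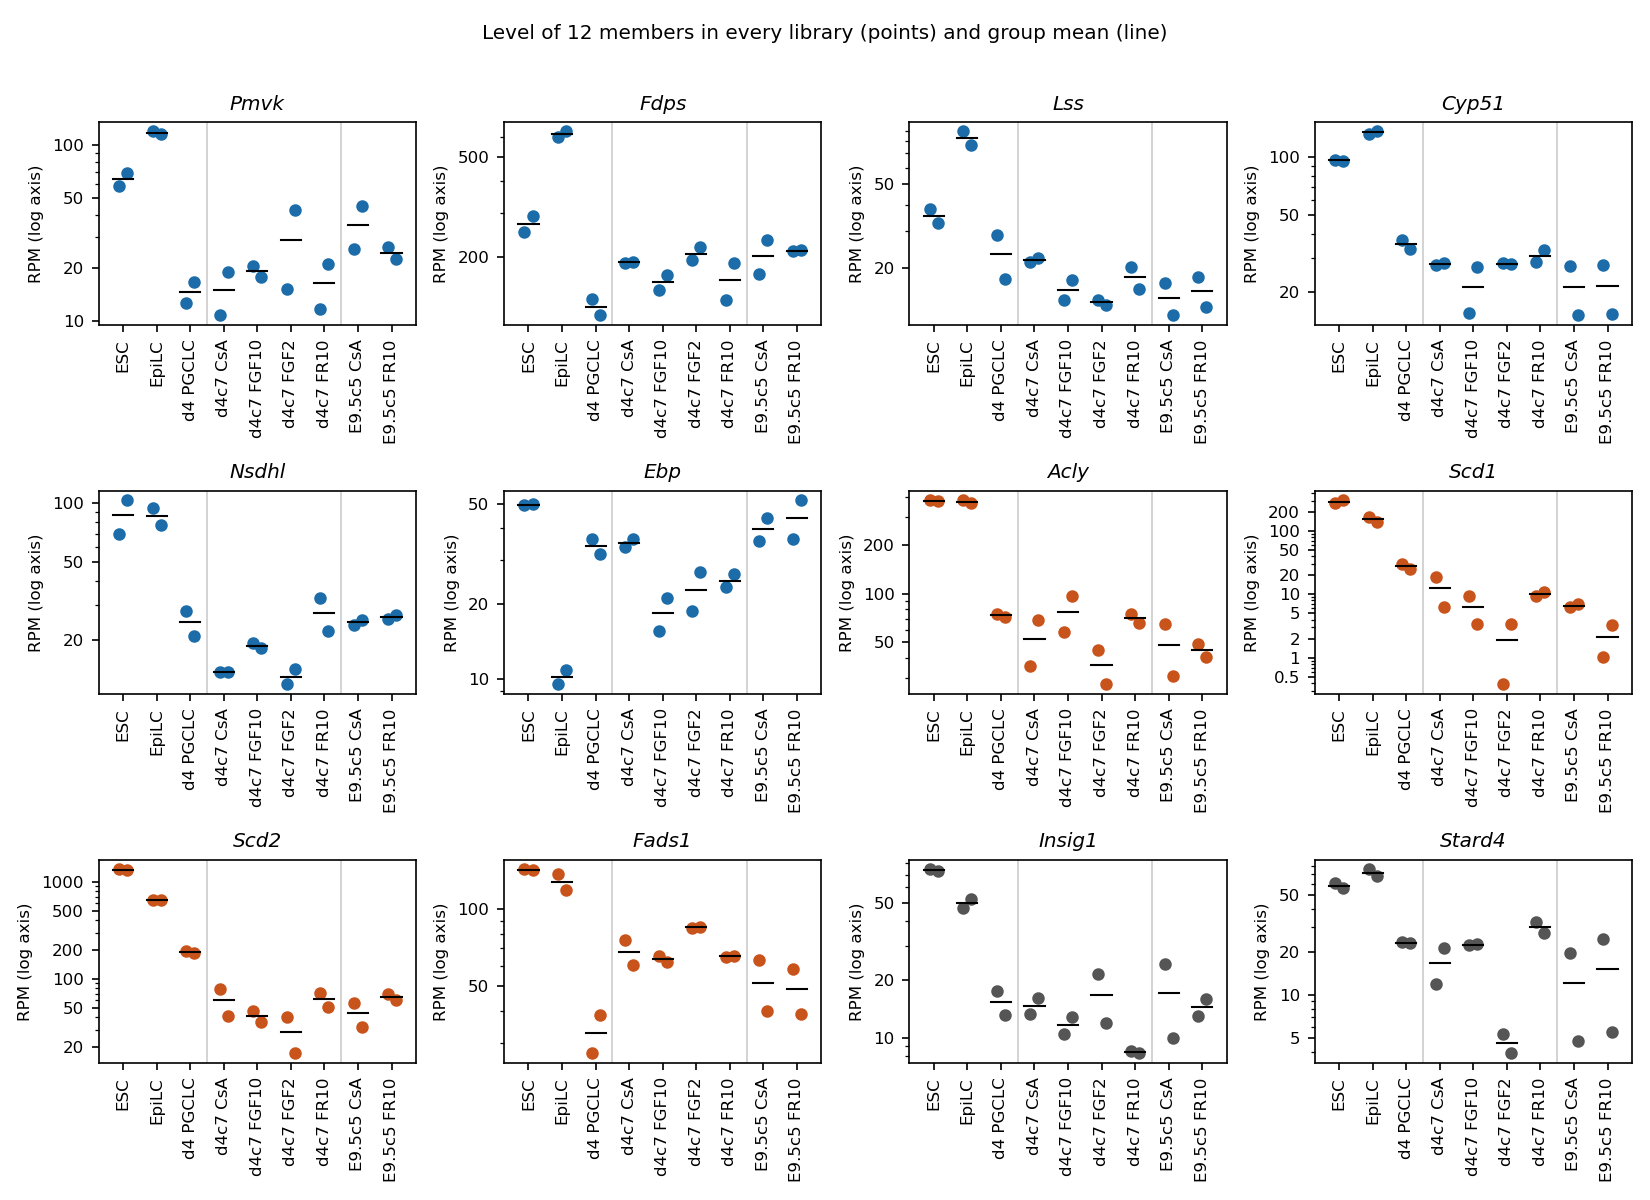
Each panel gives the RPM of 1 member on a log axis, with 2 points a group for its libraries and a line at the group mean; blue marks sterol enzymes, orange fatty acid enzymes and grey regulators. Pmvk, Fdps, Lss and Cyp51 peak in EpiLC, Ebp has its lowest points there, and Scd2 has 17.0 to 78.4 RPM in the cultured libraries, against 1353 and 1314 RPM in ESC.

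In the fatty acid branch 6 of the 8 members were called lower and 1 higher in d4 PGCLC against EpiLC, with a median log2 fold change of −1.67. Without Scd1 and Scd2, 4 of 6 were called lower and 1 higher, with a median of −1.32. In the sterol branch 7 of 16 tested members were called lower and 1 higher, with a median of −0.91. Acly, which makes cytosolic acetyl-CoA from citrate and so feeds both branches, had 75.1 and 72.2 RPM in d4 PGCLC, against 380 and 363 RPM in EpiLC (−2.32 ± 0.35, limma adjusted p = 6.93e-05). Acaca had 43.7 and 35.5 RPM in d4 PGCLC, against 83.4 and 85.9 RPM in EpiLC (−1.08 ± 0.41, limma adjusted p = 0.0437), and this call was lost without any 1 of the 4 libraries. Fasn, the synthase itself, had 232 and 199 RPM in d4 PGCLC and 328 and 267 RPM in EpiLC and was not called.

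The enzymes that place double bonds fell with Acly. Scd1 and Scd2 desaturate stearate, and Scd1 had 30.1 and 25.5 RPM in d4 PGCLC, against 168 and 139 RPM in EpiLC (−2.42 ± 0.57, limma adjusted p = 0.00293). Scd2 had 196 and 183 RPM in d4 PGCLC, against 656 and 650 RPM in EpiLC (−1.78 ± 0.35, limma adjusted p = 0.000805). In both genes d4 PGCLC was far below EpiLC, with libraries of a group close together.

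Fads1 and Fads2 desaturate polyunsaturated fatty acids and are neighbours in the genome. Fads1 had 27.2 and 38.4 RPM in d4 PGCLC, against 136 and 118 RPM in EpiLC (−1.94 ± 0.26, limma adjusted p = 2.27e-05). Fads2 had 25.4 and 16.0 RPM in d4 PGCLC, against 54.7 and 68.9 RPM in EpiLC (−1.56 ± 0.51, limma adjusted p = 0.0219), a call that some fits with 1 library left out did not make. Elovl6, which elongates palmitate, was the only fatty acid enzyme that rose, with 260 and 240 RPM in d4 PGCLC, against 150 and 173 RPM in EpiLC (0.62 ± 0.20, limma adjusted p = 0.0197). With median-ratio scaling its log2 fold change was 0.26 and no longer called.

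Among regulators, Insig1, itself a known SREBP target, fell with the enzymes. It had 17.4 and 13.1 RPM in d4 PGCLC, against 47.1 and 52.2 RPM in EpiLC (−1.65 ± 0.39, limma adjusted p = 0.00310). Stard4, a carrier that moves sterol between membranes, had 23.5 and 23.0 RPM in d4 PGCLC, against 76.0 and 67.7 RPM in EpiLC (−1.59 ± 0.57, limma adjusted p = 0.0348, lost without any 1 of the 4 libraries). In both genes the groups were well separated.

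The transcripts of the transcription factors and of SCAP were not called lower. Srebf2, which encodes the factor best known for sterol genes, had 86.9 and 88.4 RPM in d4 PGCLC, against 94.9 and 78.9 RPM in EpiLC, overlapping ranges. Scap had 29.6 and 30.9 RPM in d4 PGCLC and 20.2 and 21.7 RPM in EpiLC and was not called. Srebf1 had 46.5 and 46 RPM in d4 PGCLC, against 20.2 and 20.1 RPM in EpiLC (1.16 ± 0.42, limma adjusted p = 0.0383), but this value is uncertain. The 3′ end of Srebf1 overlaps Rai1 on the opposite strand by 109 bases, and Rai1 changed by 3.95 ± 0.54 in the same direction. The Srebf1 call was also lost without any 1 of the 4 libraries and with median-ratio scaling. Insig2 had 5.64 and 11.8 RPM in d4 PGCLC and 18.1 and 14.7 RPM in EpiLC and was not called.

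**Figure D3:**
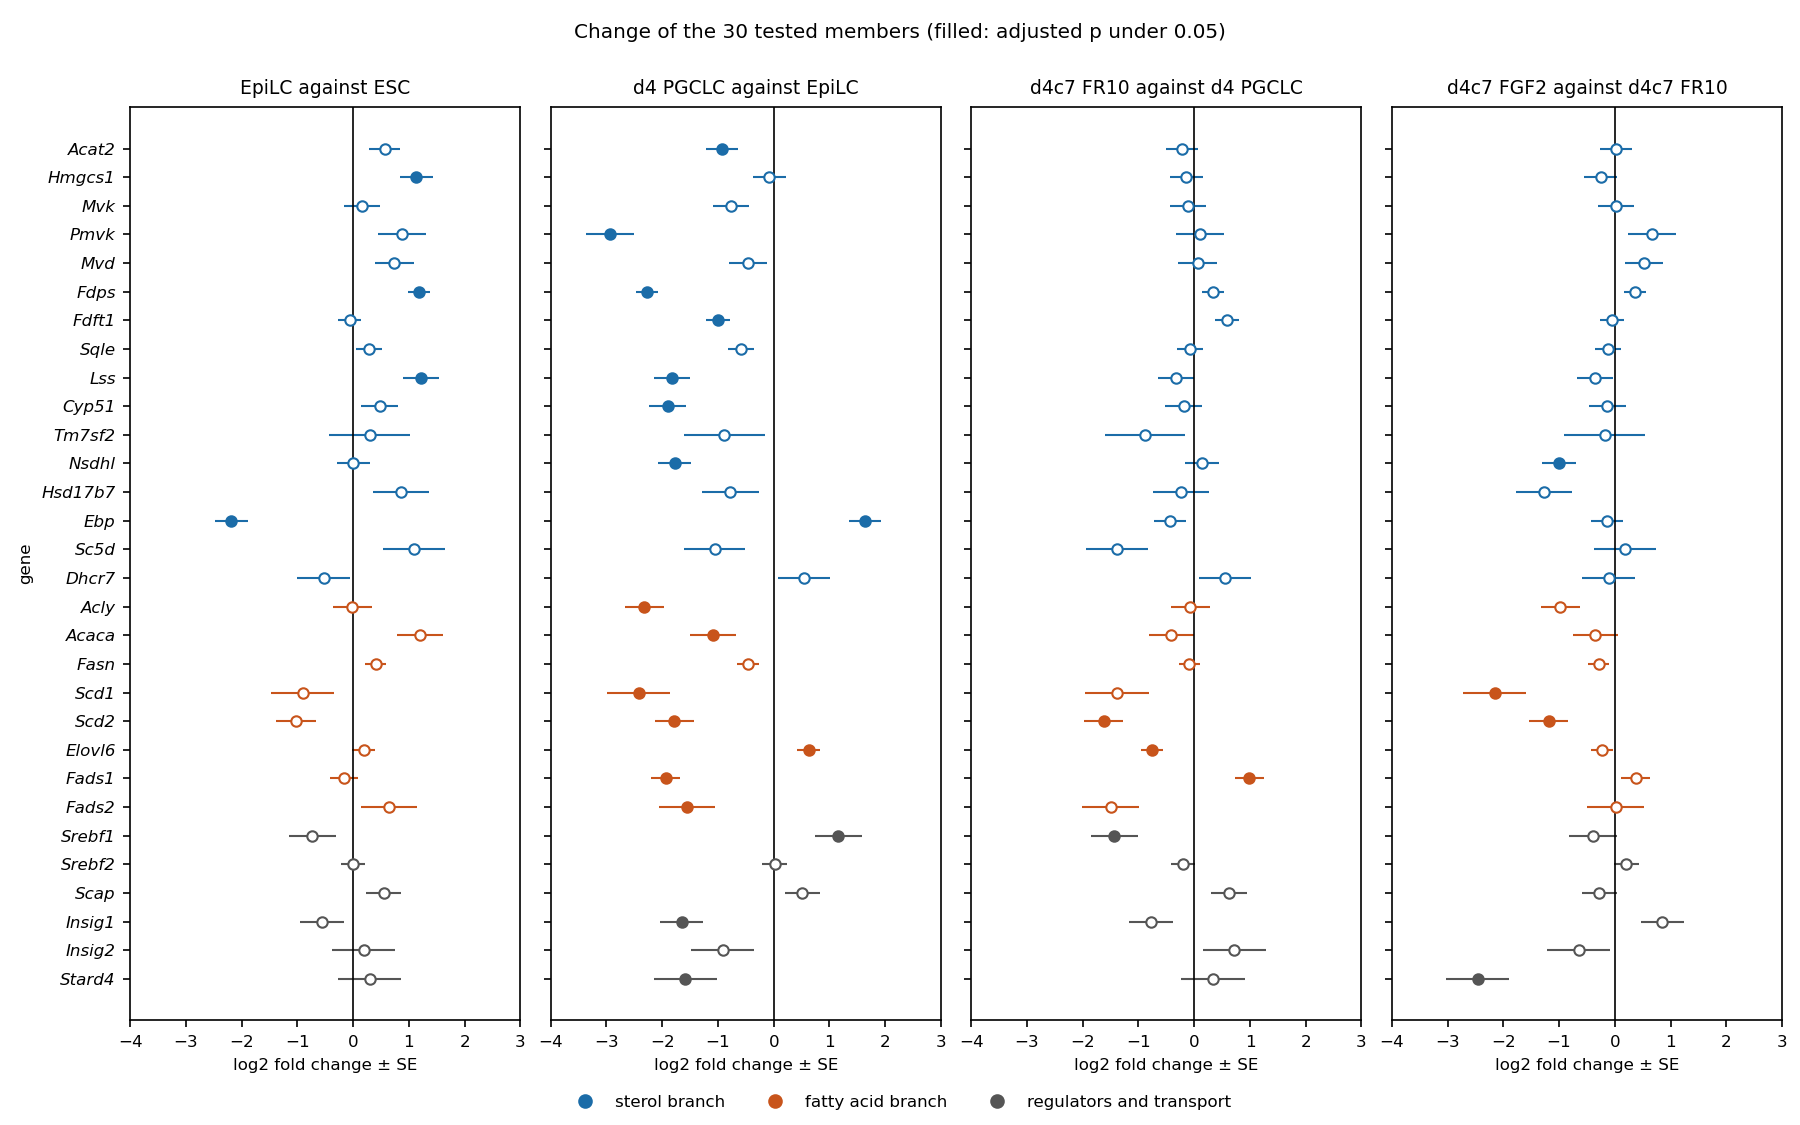
Points give the log2 fold change of each tested member with its standard error in 4 comparisons, filled where the limma adjusted p was under 0.05; blue, orange and grey mark the sterol branch, the fatty acid branch and the regulators. In d4 PGCLC against EpiLC 15 filled points lie left of 0 and 3 right of it, and in d4c7 FR10 against d4 PGCLC 3 lie left of 0 and 1 right of it.

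Set against ESCs in place of EpiLCs, d4 PGCLCs had 10 members lower and 3 higher, beside 10.2% of all tested genes called lower and 24.3% called higher. The same d4 PGCLC libraries enter this comparison. Scd1 and Scd2 gave log2 fold changes of −3.33 ± 0.57 and −2.81 ± 0.35 (limma adjusted p of 0.000272 and 1.58e-05), so that Scd2 was 7.01-fold lower in d4 PGCLC than in ESC. Acly (−2.34 ± 0.35), Insig1 (−2.21 ± 0.39), Fads1 (−2.10 ± 0.26) and Pmvk (−2.07 ± 0.43) were also called lower, as were Nsdhl, Cyp51, Fdps and Fdft1 at −1.77 to −1.06. The Fdft1 value is uncertain here, since its overlapping partner Ctsb was called lower as well (−1.80 ± 0.22, limma adjusted p = 1.22e-05). Hmgcs1 at 1.05 ± 0.29, Scap at 1.06 ± 0.31 and Elovl6 at 0.81 ± 0.20 were called higher, and none of these 3 was called with median-ratio scaling. Lss, called in both comparisons that involve EpiLC, was not called between d4 PGCLC and ESC, where it had 28.6 and 17.8 RPM in d4 PGCLC and 37.9 and 32.7 RPM in ESC.

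As a description with no test, the mean of log2(RPM + 1) over each branch was set to 0 in ESC. In EpiLC the sterol branch stood at 0.39 (libraries 0.33 and 0.46) and the fatty acid branch at 0.04 (0.02 and 0.06). In d4 PGCLC the sterol branch stood at −0.50 and the fatty acid branch at −1.33, and in the cultured groups the sterol branch lay between −0.71 and −0.96 and the fatty acid branch between −1.90 and −2.53. In every library from EpiLC onward the fatty acid mean was therefore further down than the sterol mean, by 0.35 in EpiLC, 0.83 in d4 PGCLC and 0.94 to 1.67 over the cultured groups.

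Much of that gap rested on the stearoyl-CoA desaturases. Without Scd1 and Scd2 the fatty acid branch stood at 0.37 in EpiLC and −0.75 in d4 PGCLC, close to the sterol branch, and at −0.80 to −1.30 in the cultures. The difference between branches then shrank to −0.02 in EpiLC and −0.25 in d4 PGCLC. In d4c7 FGF10 it changed sign, to 0.16. The lower fatty acid mean thus rests in large part on 2 of its 8 members. Scd1 and Scd2 had the lowest log2 fold changes of all tested members in d4 PGCLC against ESC. Leaving them out was therefore bound to raise the fatty acid mean, and no sterol member was left out in the same way. The split is a description and no test of a difference between the branches.

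**Figure D4:**
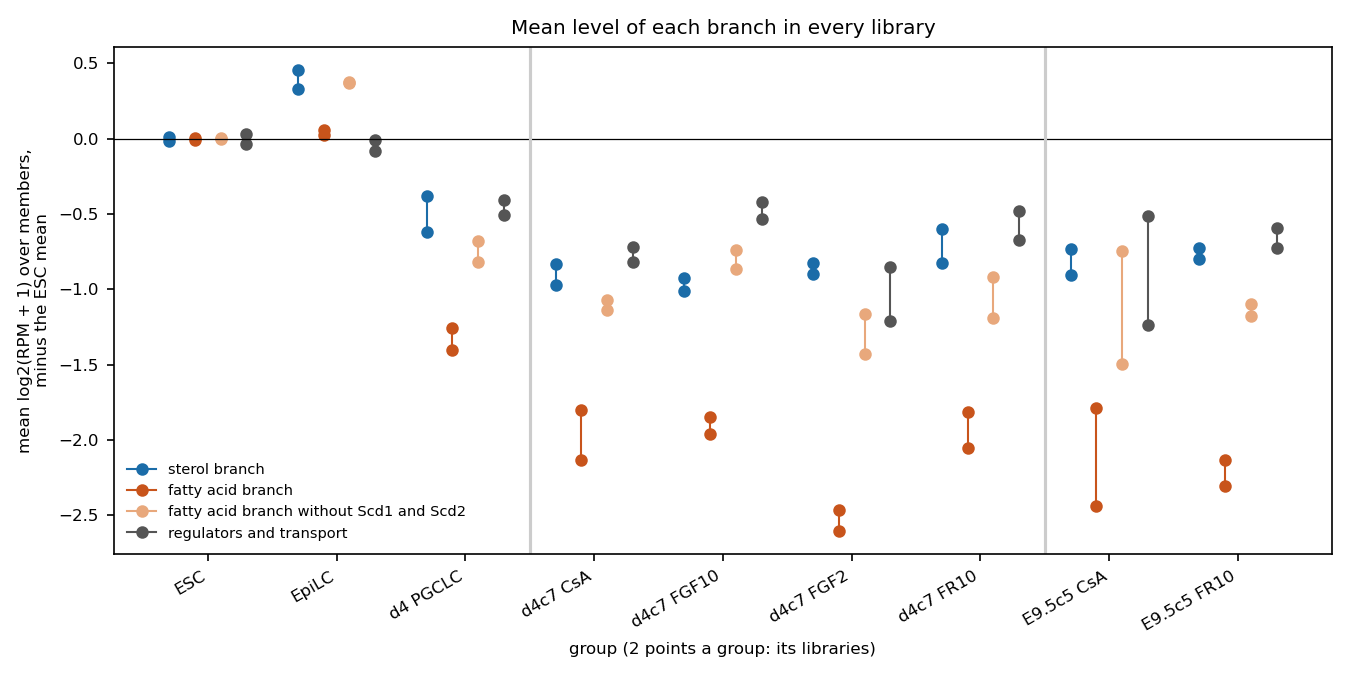
The y axis gives the mean of log2(RPM + 1) over the members of a branch minus its ESC mean, with 2 joined points a group for its libraries. Blue sterol points rise above 0 in EpiLC and then sit between −0.38 and −1.01, dark orange fatty acid points reach −2.60 in d4c7 FGF2, and light orange points, without Scd1 and Scd2, stay nearer the blue ones.

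Neighbouring lipid genes, listed apart from the members, did not all follow them in d4 PGCLC against EpiLC. Among 16 tested enzymes next to these pathways 5 were lower and 1 higher, and their median log2 fold change was −0.43, beside 12.1% of all tested genes called lower, 27.5% called higher and a median of 0.34. Acsl4, which activates arachidonate, had 3.8 and 5.0 RPM in d4 PGCLC, against 146 and 145 RPM in EpiLC (−4.78 ± 0.69, limma adjusted p = 4.60e-05). Me1, the malic enzyme that supplies NADPH for lipid synthesis, had a log2 fold change of −3.25 ± 0.58, while the acyl-CoA synthetase gene Acsl3 rose by 1.52 ± 0.38 (limma adjusted p of 0.000346 and 0.00450).

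Most called genes of sterol transport and efflux and of fatty acid oxidation were higher in d4 PGCLC, as were most called genes of all those tested (27.5% higher and 12.1% lower). Of 11 tested transport and efflux genes, 5 rose and 2 fell, and their median was 0.18. Npc1, which exports cholesterol from lysosomes, had 55.9 and 66.8 RPM in d4 PGCLC, against 11.6 and 7.7 RPM in EpiLC (2.56 ± 0.31, limma adjusted p = 9.60e-06). Abcg1, a sterol efflux pump, changed by 2.81 ± 0.37 and Nr1h2, which encodes the oxysterol receptor LXR beta, by 1.85 ± 0.29. Of 14 tested oxidation genes, 6 rose and none fell by limma, with a median of 0.66 and 7 at an unadjusted p under 0.05, beside 48.1% of all tested genes. These include Eci2 (2.01 ± 0.27), the electron carrier gene Etfb (1.79 ± 0.25) and the dehydrogenase gene Acadm (1.90 ± 0.27). The medians of these 2 lists lie on either side of the 0.34 of all tested genes.

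**Figure D5:**
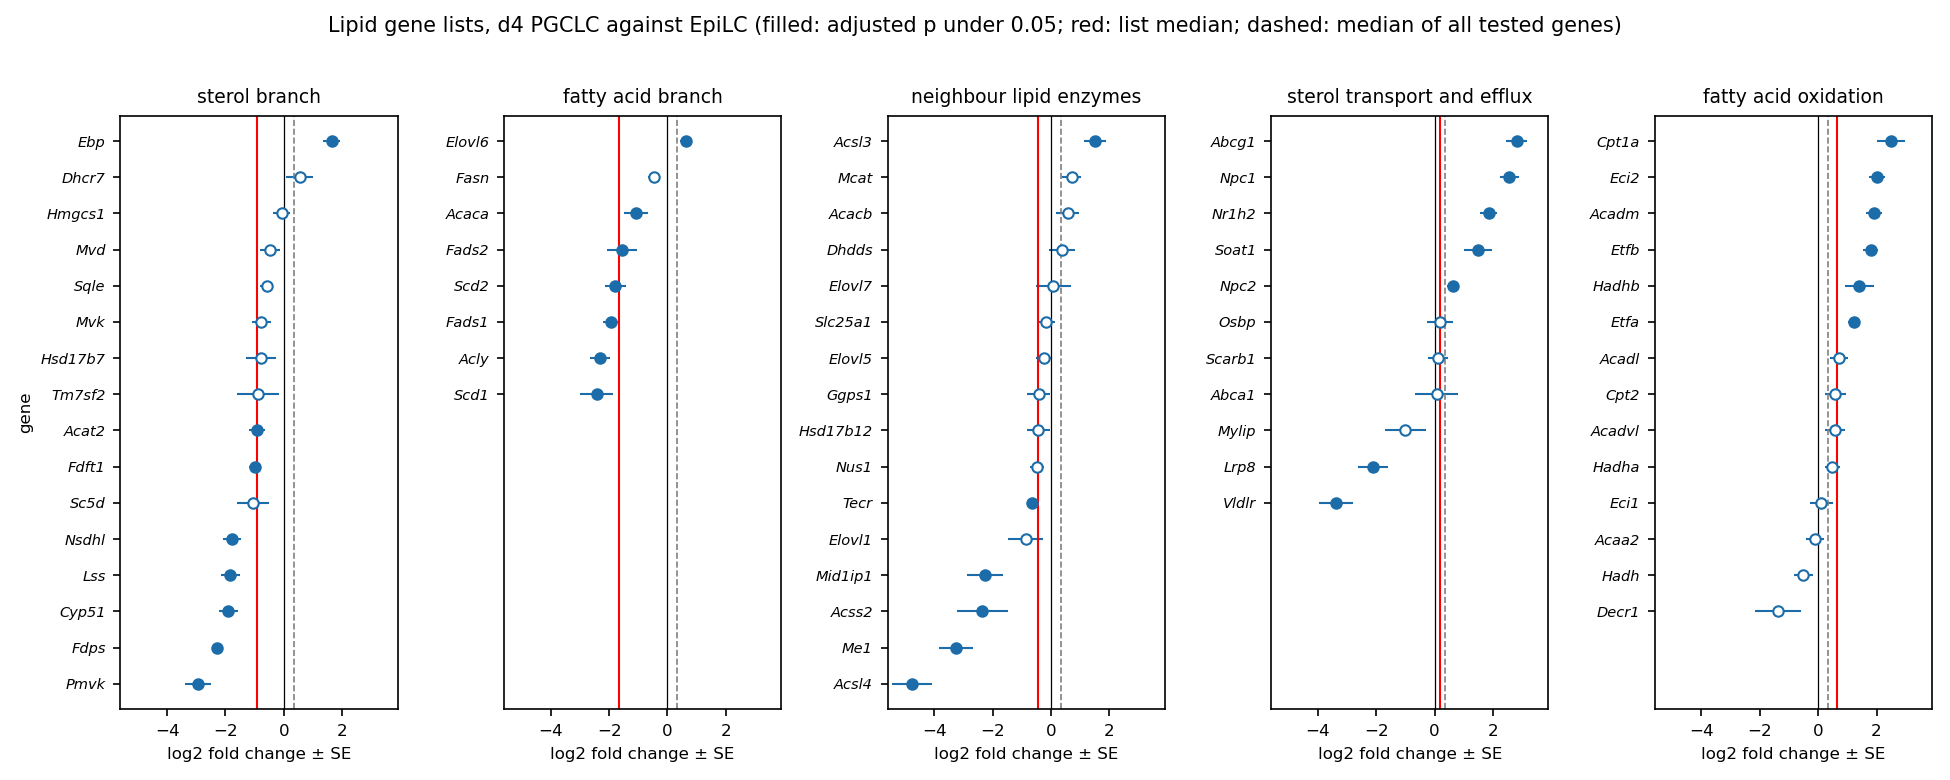
Each panel lists the tested genes of a lipid list with the log2 fold change in d4 PGCLC against EpiLC and its standard error, filled where called; the red line is the list median and the dashed line the median of all tested genes, 0.34. Filled points lie mostly left of 0 in the synthesis branches and right of 0 in the oxidation list.

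The next comparison was between d4 PGCLCs kept for 7 days with FR10 and the d4 PGCLCs they came from. In d4c7 FR10 against d4 PGCLC 3 members of 30 fell and 1 rose, beside 8.22% of all tested genes called lower and 7.01% called higher, a count near the background. Of the 9 tested feeder and fibroblast markers 3 rose and 1 fell. The median over these 9 was 1.54 log2 units, with 6 values above 0, 3 below and a lowest of −1.88. A marker near 0 in d4 PGCLC could pass the filter only through libraries where it was higher. The median is therefore no measure of the change of all 13 markers. Dcn, a matrix proteoglycan gene of fibroblasts, had 76.7 and 69.4 RPM in d4c7 FR10 and was at 0 in both d4 PGCLC libraries, and Col3a1, a fibrillar collagen gene, had 68.9 and 31.8 RPM in d4c7 FR10, against 0.939 and 0 RPM in d4 PGCLC. Other markers did not rise, and Lum and Thy1 were at 0 in both d4c7 FR10 libraries. The part of these markers in the differences of members was not tested. No sterol enzyme was called by limma, with 2 of 16 at an unadjusted p under 0.05, beside 28.3% of all tested genes, and 4 members called in all by the count-based voom fit. The sterol median was −0.13, beside −0.07 for all tested genes. The member count depended on single libraries, with 0 to 3 members called when 1 library was left out and 9 (2 higher, 7 lower) without the 3 libraries that stood apart.

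Scd2 fell once more, to 71.3 and 51.8 RPM in d4c7 FR10, against 196 and 183 RPM in d4 PGCLC (−1.62 ± 0.35, limma adjusted p = 0.00509). Scd1 had 9.29 and 10.7 RPM in d4c7 FR10, against 30.1 and 25.5 RPM in d4 PGCLC, without a call (−1.39, limma adjusted p = 0.115). Fads1 went the other way, with 64.7 and 65.6 RPM in d4c7 FR10, against 27.2 and 38.4 RPM in d4 PGCLC (0.99 ± 0.26, limma adjusted p = 0.0161). Its neighbour Fads2 had 11.6 and 3.45 RPM in d4c7 FR10 and 25.4 and 16.0 RPM in d4 PGCLC and was not called (−1.50, limma adjusted p = 0.0561). In both desaturase pairs the groups did not overlap.

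Elovl6 fell to 160 and 135 RPM in d4c7 FR10, against 260 and 240 RPM in d4 PGCLC (−0.76 ± 0.20, limma adjusted p = 0.0165). Srebf1 fell to 15.1 and 18 RPM in d4c7 FR10, against 46.5 and 46 RPM in d4 PGCLC (−1.43 ± 0.42, limma adjusted p = 0.0299), again beside its overlapping partner Rai1 at −3.15 ± 0.54. Acly was not called, with 74.7 and 65.9 RPM in d4c7 FR10 and 75.1 and 72.2 RPM in d4 PGCLC. Each of the 4 calls was lost in at least 2 of the 4 fits with 1 library left out: Scd2 without d4 PGCLC 1 or d4c7 FR10 2, Fads1 without d4 PGCLC 1 or either d4c7 FR10 library, Elovl6 without either d4 PGCLC library or d4c7 FR10 2, and Srebf1 without any.

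Further comparisons set cultured PGCLCs of the CsA, FGF10 and FGF2 groups against those of the FR10 group and against each other. With CsA no member was called against FR10 by limma or by the voom fit, and 0.0314% of all tested genes were called. At an unadjusted p under 0.05 there were 2 of 30 members and 13.8% of all tested genes. Nsdhl had 13.6 and 13.6 RPM in d4c7 CsA and 32.5 and 22.1 RPM in d4c7 FR10 (−0.93, limma adjusted p = 0.202). With FGF10 no member was called against FR10 either, by limma or voom, and 0.0% of all tested genes were called, with 2 of 30 members and 4.99% of all tested genes at an unadjusted p under 0.05. FGF10 against CsA likewise gave 0 members by both fits, beside 0.628% of all tested genes by limma, with 2 members and 14.5% of all tested genes at an unadjusted p under 0.05. With 2 libraries a group, these counts do not show that the levels were equal.

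FGF2 gave 4 members lower and none higher against FR10, beside 7.47% of all tested genes called lower and 1.37% called higher. The member median was −0.16, against −0.33 for all tested genes, so the members as a whole were not lower than the typical gene. Stard4 had 5.33 and 3.89 RPM in d4c7 FGF2, against 32.5 and 26.9 RPM in d4c7 FR10 (−2.46 ± 0.57, limma adjusted p = 0.0209). Scd1 had 0.381 and 3.40 RPM in d4c7 FGF2, against 9.29 and 10.7 RPM in d4c7 FR10 (−2.15 ± 0.57, limma adjusted p = 0.0309), and the first of these values is below the 1.14 RPM that 3 reads give in that library. In both genes the groups did not overlap.

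Scd2 had 40.0 and 17.0 RPM in d4c7 FGF2, against 71.3 and 51.8 RPM in d4c7 FR10 (−1.19 ± 0.35, limma adjusted p = 0.0464). Nsdhl had 11.8 and 14.1 RPM in d4c7 FGF2, against 32.5 and 22.1 RPM in d4c7 FR10 (−1.0 ± 0.30, limma adjusted p = 0.0462). Without d4c7 FGF2 2, one of the libraries that stood apart, the Scd2 change was −0.59 and not called. The 4 calls depended on the settings, with 0 made without either d4c7 FR10 library, 1 without d4c7 FGF2 2, 0 with no filter on low values and 0 with the cultured libraries fitted alone. In the same cultures the 7 germ cell markers summed to 887 to 1095 RPM in d4c7 FGF2, against 2017 to 2055 RPM in d4c7 FR10, and the feeder and fibroblast markers to 280 to 617 RPM in d4c7 FGF2, against 945 to 1020 RPM in d4c7 FR10. Without Sparc, Fn1 and Vim, the other 10 summed to 28.7 to 72.3 RPM in d4c7 FGF2, against 156 to 197 RPM in d4c7 FR10. Of 9 tested feeder and fibroblast markers, 2 (Col3a1 and Cxcl12) fell. The part of either in the result was not tested.

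Against CsA, 1 member, Scd1, was called lower with FGF2, beside 1.66% of all tested genes. Scd1 had 0.381 and 3.40 RPM in d4c7 FGF2, against 18.5 and 6.35 RPM in d4c7 CsA (−2.28 ± 0.57, limma adjusted p = 0.0397). The call was lost without either d4c7 CsA library and without d4c7 FGF2 1. Stard4 had 11.9 and 21.5 RPM in d4c7 CsA, above both d4c7 FGF2 libraries, without a call (−1.61, limma adjusted p = 0.124). The comparisons with FR10 and with CsA share the d4c7 FGF2 libraries.

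Cultured germ cells of the embryo also had low stearoyl-CoA desaturase levels. In E9.5c5 FR10 against d4c7 FR10 no member was called by limma or voom, and 0.0418% of all tested genes were called by limma, with 5 of 30 members and 14.9% of all tested genes at an unadjusted p under 0.05. Scd2 had 69.8 and 61.0 RPM in E9.5c5 FR10, against 71.3 and 51.8 RPM in d4c7 FR10, with overlapping ranges. Scd1 had 1.02 and 3.26 RPM in E9.5c5 FR10, against 9.29 and 10.7 RPM in d4c7 FR10 (−1.90, limma adjusted p = 0.202). The first of these Scd1 values equals the 1.02 RPM that 3 reads give in that library. Sc5d, a desaturase of the last sterol steps, had 14.3 and 13.8 RPM in E9.5c5 FR10, against 2.32 and 5.87 RPM in d4c7 FR10 (1.66, limma adjusted p = 0.219). These groups differ in origin, strain label, reporter, sort and days of culture at once.

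CsA against FR10 in the embryo cells called no member by limma or voom, beside 0.0% of all tested genes by limma, with 2 of 30 members and 7.35% of all tested genes at an unadjusted p under 0.05. Hmgcs1 had 55.4 and 45.1 RPM in E9.5c5 CsA, against 118 and 75.6 RPM in E9.5c5 FR10 (−0.91, limma adjusted p = 0.546). The test of whether the CsA effect differed between embryo cells and PGCLCs called 0 of 30 members by limma and by voom, beside 0.0% of all tested genes by limma, with 1 member and 6.44% of all tested genes at an unadjusted p under 0.05.

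Over all comparisons 10 tested members were never called. They are Mvk, Mvd, Sqle, Tm7sf2, Hsd17b7, Sc5d, Dhcr7, Fasn, Srebf2 and Insig2. Fasn ranged from 158 to 328 RPM over the 18 libraries and Srebf2 from 55.6 to 102 RPM. Tm7sf2, with 0.340 to 22.8 RPM, and Sc5d, with 2.32 to 29.0 RPM, had wide ranges at low level, where few reads limit what can be seen.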

How the data were processed

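The deposited values are RPM, in which the authors brought the reads of every library to 1 total, without correcting for transcript length. The build mm10 and the tools TopHat 1.4.1, cutadapt 1.3 and Cufflinks 2.2.0 stand in the submitters' processing notes. The sources used here do not give the gene annotation, the counting settings or the use of strand. Of 34896 listed genes, 46 had no value and were left out.

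Read depth was inferred from the step between low RPM values, of which 99.7% to 99.8% a library were whole multiples within 0.02 read. Genes with at least 10 RPM in at least 2 libraries, 9561 in all, were tested on log2(RPM + 1), a scale that understates changes of low genes. R 4.3.3 and limma 3.58.1 fitted 1 mean a group over all 18 libraries with a variance trend, leaving 9 residual degrees of freedom and a median residual SD of 0.37 log2 units. The threshold was a Benjamini-Hochberg adjusted p of 0.05 over all tested genes, and every adjusted p here is from limma. The procedure was tested on simulated data.

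The labels call the replicates of the cultured groups biological. For ESC, EpiLC and d4 PGCLC nothing says that they are separate cultures, so the spread between these samples may be technical. The p-values rest on a spread pooled for each gene over all 18 libraries. The cultured groups, whose replicates differed more, therefore also set the p-values of comparisons among ESC, EpiLC and d4 PGCLC. Depths cover counting error only, since amplified reads are not independent molecules.

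The members, the neighbouring gene lists, the markers and the rule for naming genes (called members in full, other lists by at most 3 called genes of smallest p) were chosen with earlier results of these data known. Replicate numbers were not treated as pairs in the main fit. Over 36 pairs of groups the correlation of replicate deviations was −0.102 to 0.340, above 0.1 in 7, which does not exclude pairing. Alternatives were the pseudocount, the filter, median-ratio scaling, separate fits, the replicate block, leaving out libraries and, added after seeing the data, voom on inferred reads. Chromosome positions and promoters are RefSeq's for GRCm38.p6.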

Additional observations from a re-analysis of the deposited data

Results flagged for a closer look

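In 2 members the CsA libraries lay on opposite sides of the FR10 libraries in the 2 culture systems, in every library. How many of all tested genes show this pattern was not counted, so the 2 members are not shown to stand out. Hsd17b7, a ketoreductase of sterol synthesis, had 2.89 and 3.93 RPM in d4c7 CsA, against 5.42 and 13.5 RPM in d4c7 FR10. In the embryo cells Hsd17b7 had 5.42 and 5.66 RPM in E9.5c5 CsA, against 5.10 and 2.01 RPM in E9.5c5 FR10. The CsA effect in E9.5c5 minus that in d4c7 was 1.75 log2 units (limma adjusted p = 0.728), so the test of the difference did not pass. Scap, which escorts SREBP to the Golgi, had 55.9 and 54.4 RPM in d4c7 CsA, against 41.4 and 53.5 RPM in d4c7 FR10. It had 35.6 and 25.3 RPM in E9.5c5 CsA, against 36.7 and 51.7 RPM in E9.5c5 FR10, and the difference of effects was −0.749 (limma adjusted p = 0.856). Neither gene was called in either culture system.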

How the results depend on the processing

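No called value of a member changed sign under any alternative. In d4 PGCLC against EpiLC the count of 18 called members was 15 to 25 under the alternatives that kept every library of both groups, and in d4 PGCLC against ESC the count of 13 was 13 to 17. With 1 library left out these counts were 12 to 13 and 11 to 12. In EpiLC against ESC, 4 members became 8 with a pseudocount of 10 RPM, 16 with separate fits, 9 with voom, 9 without the 3 replicate 2 libraries that stood apart, and 2 with any 1 library left out. In d4c7 FR10 against d4 PGCLC, 4 became 9 without those 3 libraries and 0 to 3 with 1 library left out; separate fits do not apply there. In d4c7 FGF2 against d4c7 FR10, 4 became 2 with a pseudocount of 10 RPM, 0 with no filter, 1 with median-ratio scaling, 0 with separate fits, 2 with voom and 0 to 4 with 1 library left out. In d4c7 FGF2 against d4c7 CsA, 1 became 0 with a pseudocount of 0.1 or 10 RPM, with no filter, with separate fits and with voom, 2 without the 3 libraries, and 0 to 3 with 1 library left out. Counts of 0 became 1 in d4c7 CsA against FR10, 2 in d4c7 FGF10 against CsA and 1 in E9.5c5 FR10 against d4c7 FR10 without the 3 libraries, and the last also 0 to 1 with 1 library left out. Where leaving out a library left 1 sample in a group, it was assumed to vary like the other groups. The cause of these shifts was not tested.

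With the replicate number as a block the counts were 6 in EpiLC against ESC, 19 in d4 PGCLC against EpiLC, 13 in d4 PGCLC against ESC, 4 in d4c7 FR10 against d4 PGCLC, 4 in d4c7 FGF2 against d4c7 FR10 and 2, with Scd2 added, in d4c7 FGF2 against d4c7 CsA. The labels do not say whether the replicate numbers pair samples.

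Depth limits the members of low level, such as Idi1, Tm7sf2, Sc5d and Scd1 in culture. With 2 libraries a group, a member that was not called is not shown to be equal.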
